A study of Mus musculus with 202 samples.

Results

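The comparison covered single oocytes of F2 mice whose lineage began with an F0 female on a rich diet, set against F2 mice of the control lineage. The oocytes compared were of 2 groups: F2 HFHS+Veh, in which the F0 female had a high fat and high sugar diet with vehicle, and F2 CD+Veh, in which she had a control diet with vehicle. The labels give the diet and the hormone treatment of the F0 female only, name C57Bl/6J as the strain, and give neither the diet nor the age of the F2 animals themselves. Both groups had vehicle in place of the hormone, dihydrotestosterone (DHT). A further group, F2 CD+DHT, in which the F0 female had the control diet with DHT, was not part of the comparison. Its 25 oocytes, of 5 animals, shared in the estimate of the spread between animals, and their levels are given for some genes. Each library was 1 oocyte at metaphase II (MII), read with Smart-seq2, a full-length method for single cells. Oocytes were chosen by title, and those under 100000 counts on genes or under 4000 detected genes were set aside. That left 36 of the 202 oocytes of the series, 20 of 20 HFHS+Veh oocytes (5 from each of animals 4, 5, 10 and 19) and 16 of 20 CD+Veh oocytes (4, 3, 5 and 4 from animals 2, 3, 13 and 14). The number before the point in each title was taken to name the animal, which no label states outright, and animals were the replicates (n = 4 each). The series asks how androgen before birth bears on polycystic ovary syndrome in later generations, and the groups here differ in the F0 diet as far as the titles say.

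An MII oocyte has stopped transcribing and lives on RNA stored while it grew in the follicle. It holds that RNA, and the cell cycle itself at metaphase, until fertilisation. Its mitochondria, all passed on to the embryo, make ATP mainly from pyruvate, which the surrounding cumulus cells supply, because the oocyte itself uses little glucose. Maternal diets rich in fat are widely studied for effects on these mitochondria, on the meiotic spindle and on DNA methylation of the egg.

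The labels of some oocytes contradicted each other. The characteristics of 8 oocytes titled F2 HFHS+Veh named F3, all 5 of animal 10 and oocytes 1, 2 and 3 of animal 5. Titles were followed, and without those oocytes animal 10 is lost and the fit rests on 3 HFHS+Veh animals. Kept libraries held 424872 to 11938267 gene counts in HFHS+Veh and 220777 to 13381587 in CD+Veh. The 4 CD+Veh oocytes left out held 2441 to 42123. Oocyte 2 of HFHS+Veh animal 4 stood apart, with 424872 gene counts, 5624 genes and 3.46% of its counts on spike-in RNA, and the authors' normalised table, which held the other 19 HFHS+Veh oocytes and all 16 CD+Veh oocytes, did not hold it.

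Oocyte markers were abundant in every animal, with 27 or 28 of 30 detected and a summed level of 41557 to 58355 CPM (gene counts scaled to the same library total) in HFHS+Veh animals and 44335 to 61668 CPM in CD+Veh animals. Other cell types' lists held both absent and present genes. The theca genes Cyp17a1 and Insl3 and the endothelial genes Emcn and Esam were at 0 in all 8 animals. Pecam1 of the endothelial list had 56.7 to 86.3 CPM in HFHS+Veh and 63.1 to 115 CPM in CD+Veh, Myh11 of the theca and stroma list 26.67 to 40.1 CPM in HFHS+Veh and 21.3 to 72.6 CPM in CD+Veh, and Vim of the same list reached 39.9 CPM in HFHS+Veh animal 5 and 40.3 CPM in CD+Veh animal 3. Theca and stroma markers summed to 36.2 to 81.7 CPM in HFHS+Veh and 24.5 to 117 CPM in CD+Veh, and leukocyte markers to 0 to 38.2 CPM in HFHS+Veh and 4.49 to 41.2 CPM in CD+Veh, with Ptprc at 0.107 CPM in HFHS+Veh animal 5 and 0 in the other 7 animals, and Cd52 at 0 to 25.12 CPM in HFHS+Veh and 0 to 27.8 CPM in CD+Veh. Endothelial markers summed to 68.7 to 106 CPM in HFHS+Veh and 72.9 to 136 CPM in CD+Veh, and erythroid markers to at most 7.25 CPM in either group. Cumulus RNA differed widely between animals of both groups and is described with the animal differences.

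No gene passed the threshold. In edgeR's quasi-likelihood test on counts summed per animal, 0 of 11962 genes tested (0%) reached a Benjamini-Hochberg adjusted p under 0.05, and the lowest adjusted p was 1.0. At an unadjusted p under 0.05 there were 118 genes (0.986%), 50 with higher and 68 with lower HFHS+Veh levels, where evenly spread p-values would give about 598. DESeq2 called 2 of the 17636 genes to which it gave an adjusted p (0.0113%). Fold changes were small among genes with a mean of at least 10 CPM, 96.0% of 5942 having a log2 fold change within 0.5 of 0, against a median SE of 0.285. The median SD between animals on the log2(CPM + 1) scale was 0.352 in HFHS+Veh and 0.354 in CD+Veh. In 201 genes (1.68%) the 2 groups of 4 animals did not overlap, with HFHS+Veh above in 115 (0.961%) and below in 86 (0.719%). The edgeR test estimated the spread over 13 F2 animals, those of CD+DHT included. The labels do not say which animals share a litter or a day, so p-values measure the spread between those animals. A level here is a share of the library, and less RNA of a gene and more of all others cannot be told apart.

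**Figure D1:**
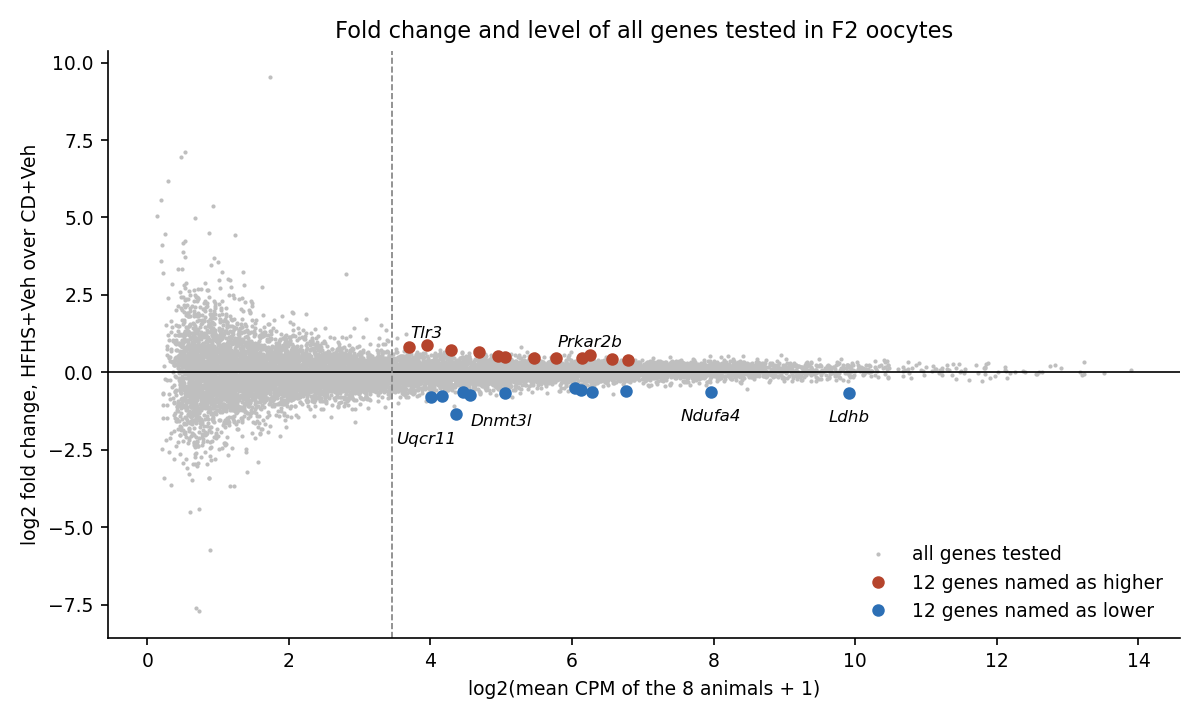
Each grey point is 1 of 11962 genes tested, with log2(mean CPM of the 8 animals + 1) on the x axis and the log2 fold change of HFHS+Veh over CD+Veh on the y axis; the dashed line marks a mean of 10 CPM. Right of the line 96.0% of genes lie within 0.5 of 0, and the 24 coloured genes, 12 in each direction with the smallest unadjusted p among genes of at least 10 CPM whose names are not of the Rik, Gm or LOC kind, did not pass the adjusted threshold.

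The genes with the smallest unadjusted p, names of the Rik, Gm or LOC kind left out, are described here by their level in each animal, in TMM-scaled CPM, always in the order of HFHS+Veh animals 4, 5, 10 and 19 and CD+Veh animals 2, 3, 13 and 14. All had an adjusted p of 1.0. Of the 12 named with higher HFHS+Veh levels the groups did not overlap in 9, and of the 12 named with lower levels in 5, counts that follow from choosing small p-values. In the authors' RPKM averaged over the oocytes of an animal the groups did not overlap in 3 of the 12 higher and 7 of the 12 lower genes. Of all genes tested 1.3% were apart in RPKM, 0.301% with HFHS+Veh above and 1% with HFHS+Veh below. RPKM comes from the same oocytes, so these counts follow from the choice of genes as well. In both units the groups were apart in 1 higher gene, Tlr3, and 4 lower genes, Btk, Cetn2, Ldhb and Miox. Over all genes tested, 115 were apart with HFHS+Veh above and 86 with it below in CPM, against 36 and 120 in RPKM. By these counts overlap in RPKM is not comparable between higher and lower genes. In fits of log2 levels averaged over oocytes, the median log2 fold change of all genes shifted by -0.11 for RPKM and by -0.15 for CPM. Where groups are called apart with no unit named, CPM is meant.

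Prkar2b, a regulatory subunit of protein kinase A, the cAMP-dependent kinase that holds oocytes in prophase before ovulation, led the higher genes (chromosome 12, 31958476 to 32061296 of GRCm38, as are all positions here). It had 81.3, 89.4, 109.5 and 81.5 CPM in HFHS+Veh animals, against 54.9, 57.0, 59.4 and 71.7 CPM in CD+Veh animals. Each HFHS+Veh animal stood above each CD+Veh animal, and the log2 fold change was 0.57 ± 0.20 (SE) with an unadjusted p of 0.0109 in edgeR. In RPKM the groups overlapped, at 22.81 to 48.7 in HFHS+Veh and 17.02 to 24.5 in CD+Veh. Single HFHS+Veh oocytes had a median of 82.9 CPM (54.2 to 520 CPM, n = 20 oocytes). Those of CD+Veh had a median of 59.6 CPM (40.4 to 93.1 CPM, n = 16 oocytes). The 520 CPM were those of oocyte 2 of animal 4, which the authors' normalised table did not hold. Animal 4 had the lowest HFHS+Veh level with that oocyte counted, 81.3 CPM, against 71.7 CPM in CD+Veh animal 14. Its level without the oocyte is not given here, so the separation in CPM is stated only with the oocyte included. Cdk8, the kinase of the Mediator complex (chromosome 5, 146231230 to 146302874), had 68.0, 58.4, 67.2 and 54.8 CPM in HFHS+Veh animals, against 42.9, 41.1, 49.5 and 47.0 CPM in CD+Veh animals. Its groups were likewise apart in CPM, though not in RPKM, the log2 fold change being 0.46 ± 0.18 (SE). The same oocyte of animal 4 was the highest for Cdk8, at 344 CPM against an HFHS+Veh median of 62.45 CPM. Arhgap19, a GTPase-activating protein, had 40.0, 40.5, 37.3 and 32.7 CPM in HFHS+Veh animals, against 28.0, 27.9, 21.2 and 29.7 CPM in CD+Veh animals. All 4 HFHS+Veh values were above 30 CPM and all CD+Veh values below it, with overlap in RPKM. Tlr3, an endosomal receptor for double-stranded RNA, had 17.7, 17.29, 21.1 and 18.5 CPM in HFHS+Veh animals, against 9.12, 11.1, 12.3 and 8.08 CPM in CD+Veh animals. It had the largest fold change of the 12 (log2 0.87 ± 0.35 (SE), unadjusted edgeR p = 0.0246), at a low level, and its groups were also apart in the authors' RPKM averaged over oocytes, 3.86 to 8.77 in HFHS+Veh and 1.58 to 3.41 in CD+Veh. For Tlr3 too oocyte 2 of animal 4 was the highest, at 132 CPM against an HFHS+Veh median of 19.7 CPM.

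The other genes on the higher side belonged to several processes. Cherp, an endoplasmic reticulum protein of calcium release and splicing, had 86.4, 86.1, 80.1 and 71.3 CPM in HFHS+Veh animals, against 52.9, 64.6, 55.2 and 60.3 CPM in CD+Veh animals. Sec24d, a cargo adaptor of the COPII coat, had 41.7, 34.4, 32.8 and 32.8 CPM in HFHS+Veh animals, against 28.8, 27.2, 19.11 and 22.95 CPM in CD+Veh animals. Snx4, a sorting nexin of endosomal recycling, had 119.7, 109.6, 147 and 118 CPM in HFHS+Veh animals, against 94.5, 89.3, 97.2 and 98.0 CPM in CD+Veh animals. In these 3 genes the groups did not overlap in CPM but did in RPKM, with log2 fold changes of 0.47, 0.53 and 0.38. Zranb3, an annealing helicase that remodels stalled replication forks, ranged over 18.6 to 27.2 CPM in HFHS+Veh animals and 11.3 to 18.2 CPM in CD+Veh animals. B3gnt2, which builds poly-N-acetyllactosamine chains on glycoproteins, ranged over 96.2 to 124 CPM in HFHS+Veh animals and 69.7 to 90.7 CPM in CD+Veh animals. Both were again apart in CPM and overlapped in RPKM, whereas 3 nuclear factors overlapped in CPM. Daxx, a chaperone of histone H3.3, had 39.0 to 55.4 CPM in HFHS+Veh animals and 33.2 to 40.2 CPM in CD+Veh animals. Lrif1, a heterochromatin protein, had 25.11 to 42.5 CPM in HFHS+Veh animals and 15.6 to 26.33 CPM in CD+Veh animals, and animal 10 stood above the other 3 HFHS+Veh animals. Eaf1, a partner of the ELL elongation factors, had 8.94 to 22.52 CPM in HFHS+Veh animals and 7.68 to 11.02 CPM in CD+Veh animals. Lrif1 and Eaf1 were apart in RPKM. The fold changes of these 5 lay between log2 0.42 for B3gnt2 and 0.82 for Eaf1.

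**Figure D2:**
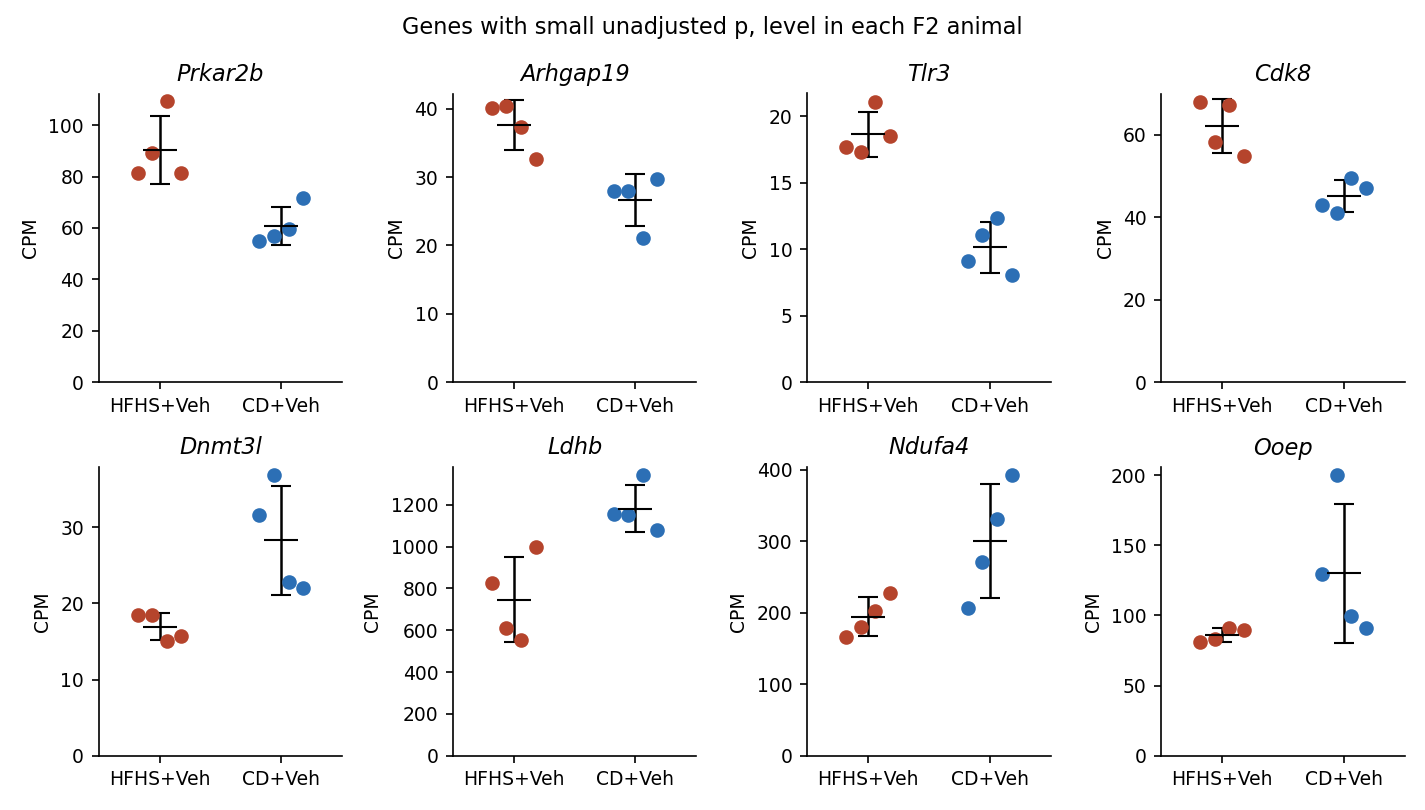
Level in TMM-scaled CPM (y axis, from 0) of 8 named genes in each F2 animal, HFHS+Veh on the left and CD+Veh on the right of each panel; points are animals, the bar is the mean and the whiskers the SD (n = 4 each). HFHS+Veh animals lie above all CD+Veh animals in the upper row and below all of them in Dnmt3l and Ldhb, while Ndufa4 and Ooep overlap.

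On the lower side stood an enzyme of pyruvate and lactate exchange, respiratory chain subunits, a cofactor of DNA methylation and genes of several unrelated processes. Ldhb, a subunit of lactate dehydrogenase, the enzyme that interconverts lactate and pyruvate, was the most abundant of them (chromosome 6, 142490249 to 142507957). It had 825, 611, 552 and 997 CPM in HFHS+Veh animals, against 1154, 1149, 1341 and 1080.2 CPM in CD+Veh animals. Every HFHS+Veh animal stood below every CD+Veh animal, and the log2 fold change was -0.66 ± 0.24 (SE) with an unadjusted edgeR p of 0.0146. Over single oocytes the median was 643 CPM in HFHS+Veh (35.3 to 1110 CPM, n = 20 oocytes) and 1257 CPM in CD+Veh (519 to 1996 CPM, n = 16 oocytes), so single oocytes of the groups overlapped while animals did not. In RPKM averaged over the oocytes of an animal, the animals were apart as well, 353 to 716 in HFHS+Veh and 740 to 1066 in CD+Veh. RPKM also scales to gene length, which is the same for 1 gene in every animal. The 5 F2 CD+DHT animals, whose F0 female had the control diet with DHT, had 513 to 1060 CPM, below all CD+Veh animals too.

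Dnmt3l, the catalytically inactive cofactor of de novo DNA methyltransferases that growing oocytes need to set maternal imprints, had 18.5, 18.5, 15.1 and 15.7 CPM in HFHS+Veh animals, against 31.6, 36.8, 22.75 and 22.03 CPM in CD+Veh animals (chromosome 10, 78041947 to 78063622). The 4 HFHS+Veh animals lay within 15.1 to 18.5 CPM and below all CD+Veh animals, of which animals 2 and 3 were highest. Single oocytes varied far more and overlapped. They had 2.31 to 50.1 CPM in HFHS+Veh (median 15.5 CPM, n = 20 oocytes) and 5.43 to 70.1 CPM in CD+Veh (median 25.15 CPM, n = 16 oocytes). The log2 fold change was -0.74 ± 0.25 (SE), unadjusted edgeR p = 0.0095. In RPKM averaged over oocytes the groups overlapped (8.33 to 16.6 in HFHS+Veh and 10.503 to 23.7 in CD+Veh), and the 5 CD+DHT animals overlapped both groups, reaching 28.1 CPM.

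Uqcr11, a subunit of respiratory complex III, had 6.61, 16.9, 9.48 and 11.1 CPM in HFHS+Veh animals, against 17.16, 51.8, 16.4 and 27.0 CPM in CD+Veh animals (chromosome 10, 80402997 to 80406830). Its log2 fold change of -1.35 ± 0.43 (SE) had the smallest unadjusted p of the 24 (0.00593, edgeR), but CD+Veh animal 3 stood far above the rest, the groups overlapped, and without that animal the value was -0.87. Ndufa4, a small subunit that associates with cytochrome c oxidase, had 166, 180.4, 202 and 228 CPM in HFHS+Veh animals, against 207, 272, 331 and 393 CPM in CD+Veh animals. CD+Veh animal 2 lay within the HFHS+Veh range, and the log2 fold change was -0.63 ± 0.23 (SE). Cox6c, another cytochrome c oxidase subunit, had 39.0, 60.4, 56.8 and 58.0 CPM in HFHS+Veh animals, against 57.0, 91.4, 65.3 and 93.4 CPM in CD+Veh animals. HFHS+Veh animal 4 was the lowest and CD+Veh animal 2 lay among the other HFHS+Veh animals.

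Ooep, a member of the subcortical maternal complex that the embryo needs for its first cleavages, had 80.8, 83.2, 90.9 and 89.3 CPM in HFHS+Veh animals, against 129.9, 199.9, 99.4 and 90.8 CPM in CD+Veh animals. The HFHS+Veh animals were close together, CD+Veh animal 3 was highest, and CD+Veh animal 14 overlapped them (log2 -0.60 ± 0.24 (SE), unadjusted edgeR p = 0.0233, and -0.31 without CD+Veh animal 3). The centriole genes Cetn2 and Sass6 were also on this side, although mouse oocytes lose their centrioles before MII. Cetn2 ranged over 14.6 to 32.0 CPM in HFHS+Veh animals and 34.1 to 46.1 CPM in CD+Veh animals without overlap, and Sass6, a protein of the cartwheel, over 7.29 to 14.26 CPM in HFHS+Veh animals and 13.6 to 32.6 CPM in CD+Veh animals with overlap. The log2 fold change of Sass6, -0.81, was -0.43 without CD+Veh animal 14. Miox, which oxidises myo-inositol, had 59.9, 57.5, 60.7 and 62.5 CPM in HFHS+Veh animals, against 88.7, 112, 83.2 and 89.7 CPM in CD+Veh animals. Its groups were apart, and Btk, a tyrosine kinase best known from B cells, was apart at a low level, with 10.7 to 16.98 CPM in HFHS+Veh animals and 18.2 to 26.37 CPM in CD+Veh animals. Rrbp1, a ribosome-binding protein of the rough endoplasmic reticulum, had 12.6 to 18.5 CPM in HFHS+Veh animals and 17.8 to 31.2 CPM in CD+Veh animals, and the stress kinase Map3k6 had 48.7 to 72.0 CPM in HFHS+Veh animals and 56.9 to 95.3 CPM in CD+Veh animals. Both overlapped, with log2 fold changes of -0.64 and -0.58.

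DESeq2 called 2 genes that are too low for the rule above and are named after their values were seen. Gpc5, a glypican of the cell surface, had 0.111, 0, 0.243 and 0.389 CPM in HFHS+Veh animals, against 1.99, 2.68, 2.31 and 2.94 CPM in CD+Veh animals. All HFHS+Veh animals lay below all CD+Veh animals, and the DESeq2 log2 fold change was -3.69 with an adjusted p of 0.00771, against an adjusted p of 1.0 in edgeR. Sfrp4, a secreted antagonist of Wnt signalling, had 0.889, 17.6, 0 and 0 CPM in HFHS+Veh animals and 0 in every CD+Veh animal, so its call came from animal 5, where all 5 oocytes held it, and 1 oocyte of animal 4. Animal 5 was also the animal with the most cumulus RNA, and the part of that RNA in the call was not tested. Among genes of at least 10 CPM, Sdc4, Skil, Sparc and Uqcr11 had a log2 fold change of at least 1 in size, and of these Sparc, a matrix protein, had 6.89, 55.9, 0.0810 and 2.31 CPM in HFHS+Veh animals, against 2.35, 17.25, 2.64 and 4.87 CPM in CD+Veh animals.

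Respiratory chain genes as a group lay mostly on the lower side. Of 77 nuclear oxidative phosphorylation genes on the list, 74 were tested, 51 had lower and 23 had higher HFHS+Veh levels and 0 were called, where 47.2% of all genes tested had lower levels. The median log2 fold change was -0.12, against 0.02 over all genes tested, and among members of at least 10 CPM 31 of 41 were lower. With the median of all genes subtracted, that of the list was below 0 in all 23 other settings of the fit (-0.34 to -0.04). These settings reuse the same animals. The lists of oocyte markers and heat shock chaperones also stayed below 0 in all 23, and those of mRNA storage and steroid genes above 0. At an unadjusted edgeR p under 0.05 there were 5 members, Uqcr11, Ndufa4 and Cox6c, and, named after their values were seen, Ndufa9 and Ndufa11 of complex I. Ndufa9 had 0.556, 1.86, 0.810 and 0.917 CPM in HFHS+Veh animals, against 3.88, 6.57, 2.64 and 4.13 CPM in CD+Veh animals, a log2 fold change of -2.05 at a low level. Ndufb5, also of complex I, lay on the other side (13.12 to 19.7 CPM in HFHS+Veh animals and 9.75 to 13.96 CPM in CD+Veh animals, log2 0.53 ± 0.35 (SE), unadjusted edgeR p = 0.149). Small respiratory and ribosomal genes have near-identical pseudogene copies, and how the counting treated them is not given in the sources used here.

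By animal, the list did not separate the lineages. Taking each member's log2(CPM + 1) against its mean over the 8 animals, the list's median was -0.22, 0.35, -0.25 and -0.15 in HFHS+Veh animals 4, 5, 10 and 19, against -0.01, 0.30, -0.14 and 0.26 in CD+Veh animals 2, 3, 13 and 14. HFHS+Veh animals 4, 10 and 19 were the lowest, but animal 5 was the highest of all 8. The animals high in this list, HFHS+Veh 5 and CD+Veh 3 and 14, were those with the most cumulus RNA (1280, 559 and 688 CPM of cumulus markers without Rgs2, against 94.0 to 221 CPM in the other 5). The part of cumulus RNA in the list was not tested. The table has 0 lines for genes of the mitochondrial genome, so the subunits encoded by the organelle itself were not analysed here.

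**Figure D3:**
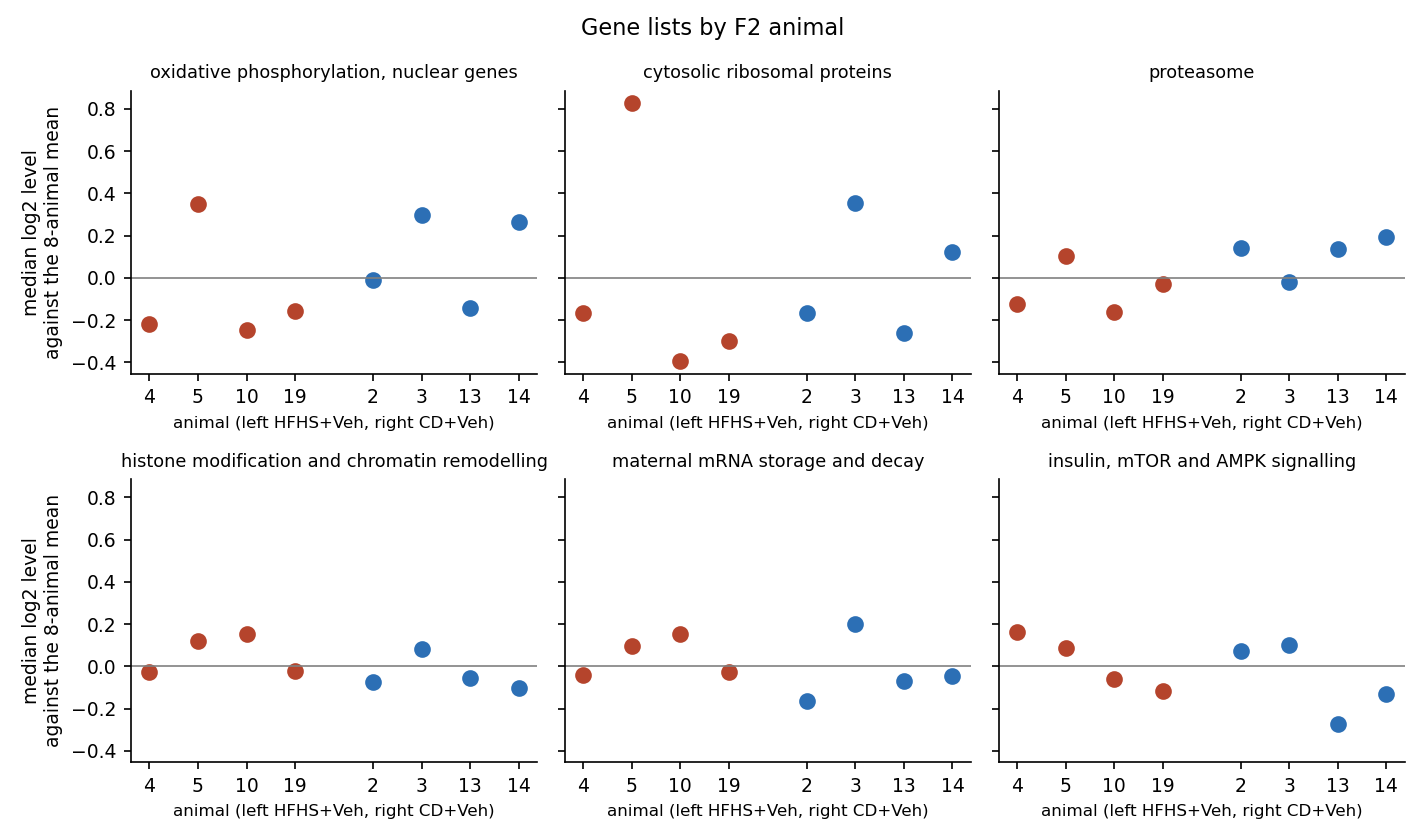
Median over list members of log2(CPM + 1) minus the member's mean over the 8 animals (y axis), 1 point per F2 animal (x axis), HFHS+Veh in red on the left and CD+Veh in blue on the right. In oxidative phosphorylation HFHS+Veh animal 5 stands at 0.35 and the other HFHS+Veh animals at -0.25 to -0.15, and the same animal is highest in ribosomal proteins at 0.83.

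Other mitochondrial and metabolic lists held no called gene either (0 called in each). Of 41 genes of mitochondrial dynamics, upkeep and biogenesis, 26 had lower and 15 had higher levels (median log2 fold change -0.03). Timm44, which drives import into the matrix, had 14.11, 18.2, 20.9 and 22.51 CPM in HFHS+Veh animals, against 34.1, 32.2, 29.8 and 27.4 CPM in CD+Veh animals. Its groups were apart in CPM and RPKM, with a log2 fold change of -0.71 ± 0.33 (SE) and an unadjusted edgeR p of 0.0498, and the matrix chaperonin partner Hspe1 overlapped (26.43 to 36.3 CPM in HFHS+Veh animals and 32.1 to 42.1 CPM in CD+Veh animals, log2 -0.29). In glycolysis, pyruvate use and glucose uptake 15 of 27 genes had higher levels (median 0.04). Beside Ldhb, the first enzyme of the pentose phosphate branch G6pdx had 27.8 to 44.9 CPM in HFHS+Veh animals and 45.3 to 48.1 CPM in CD+Veh animals without overlap, and Pdp1, which activates pyruvate dehydrogenase, had 75.2 to 95.1 CPM in HFHS+Veh animals and 68.9 to 74.2 CPM in CD+Veh animals, also without overlap but only just, and both genes overlapped in RPKM. Pfkl, a phosphofructokinase, ranged over 4.37 to 17.6 CPM in HFHS+Veh animals and 4.87 to 17.6 CPM in CD+Veh animals, with CD+Veh animals 13 and 14 and HFHS+Veh animal 10 all below 6 CPM.

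Lipid genes lay on both sides. In cholesterol synthesis and uptake 17 of 29 genes had higher levels (median 0.04). Fdft1, squalene synthase, had 11.8, 10.41, 5.83 and 11.5 CPM in HFHS+Veh animals, against 31.0, 19.02, 16.1 and 9.18 CPM in CD+Veh animals. Only CD+Veh animal 14 lay within the HFHS+Veh range, with a log2 fold change of -0.93 ± 0.39 (SE) and an unadjusted edgeR p of 0.0299, and Hsd17b7, a later enzyme of the same route, had 60.5 to 86.2 CPM in HFHS+Veh animals and 76.7 to 91.8 CPM in CD+Veh animals (log2 -0.33). Among fatty acid and lipid droplet genes 28 of 48 had higher levels (median 0.09). Acly, which makes cytosolic acetyl-CoA, had 37.5, 62.0, 35.2 and 38.5 CPM in HFHS+Veh animals, against 35.3, 31.4, 30.6 and 28.9 CPM in CD+Veh animals. HFHS+Veh animal 5 was far above the rest and animal 10 lay just below CD+Veh animal 2. Acsl3, an acyl-CoA synthetase of lipid droplets, overlapped (253 to 371 CPM in HFHS+Veh animals and 162 to 339 CPM in CD+Veh animals), as did Ppara, the nuclear receptor that controls fatty acid oxidation (7.53 to 22.12 CPM in HFHS+Veh animals and 11.6 to 19.7 CPM in CD+Veh animals), whose log2 fold change of -0.35 turned to 0.21 without the 8 oocytes with contradictory labels.

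Insulin, mTOR and AMPK signalling had 27 of 42 genes on the higher side (median 0.03) and 18 of 23 among members of at least 10 CPM. Pik3cb, a catalytic subunit of PI3-kinase, had 18.6, 17.9, 34.3 and 15.1 CPM in HFHS+Veh animals, against 12.6, 14.8, 13.28 and 14.6 CPM in CD+Veh animals. All HFHS+Veh animals stood above all CD+Veh animals, by less than 1 CPM for animal 19, with overlap in RPKM, and animal 10 was the highest (log2 0.63 ± 0.28 (SE), unadjusted edgeR p = 0.0411). The adaptor Shc1 (19.26 to 36.3 CPM in HFHS+Veh animals and 17.46 to 23.2 CPM in CD+Veh animals) and the kinase Mtor (28.6 to 44.9 CPM in HFHS+Veh animals and 33.2 to 61.1 CPM in CD+Veh animals) overlapped, with log2 fold changes of 0.36 and -0.24. With each animal left out Shc1 ran from 0.17 (without HFHS+Veh animal 5) to 0.48, and Mtor from -0.36 to -0.04 (without CD+Veh animal 14). Genes of steroid synthesis and steroid receptors had 19 of 29 members higher (median 0.13), among them the receptor coactivator Ncoa2 (167 to 236 CPM in HFHS+Veh animals and 141 to 174 CPM in CD+Veh animals, log2 0.30). By animal the steroid list stood at 0.28 in HFHS+Veh animal 5 and at -0.27 to -0.045 in the other HFHS+Veh animals, against -0.25 to 0.14 in CD+Veh animals. With each animal left out its median log2 fold change ran from 0.02 to 0.21.

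Genes of the oocyte's own programme had small differences in both directions. Of 28 oocyte markers tested 19 had lower levels (median -0.07), of 50 genes of the subcortical maternal complex and other maternal effect genes 25 had lower and 25 higher levels (median 0.00), and 0 were called in either. Nobox, a transcription factor of growing oocytes, had 61.9, 35.3, 62.0 and 69.1 CPM in HFHS+Veh animals, against 105, 77.7, 76.3 and 50.8 CPM in CD+Veh animals. HFHS+Veh animal 5 stood below the rest. Tle6, a partner of Ooep in the subcortical maternal complex, had 122, 82.8, 61.5 and 87.0 CPM in HFHS+Veh animals, against 109, 213, 99.5 and 102 CPM in CD+Veh animals. CD+Veh animal 3 was highest there as it was for Ooep, and the log2 fold change was -0.57 ± 0.28 (SE). Oosp1, a secreted oocyte protein, was one of the 9 markers on the higher side, with 3223 to 3917 CPM in HFHS+Veh animals and 2904 to 3257 CPM in CD+Veh animals. The zona pellucida and sperm-egg contact list had 6 of 10 members lower, among them Zp3, a zona protein (110.4 to 222 CPM in HFHS+Veh animals and 197 to 249 CPM in CD+Veh animals, animal 10 the lowest). Itga6, an integrin on the egg surface, had 575 to 799.5 CPM in HFHS+Veh animals and 488 to 652 CPM in CD+Veh animals (log2 0.22). Growth factors and receptors had 11 of 18 members lower, the bone morphogenetic protein receptor Bmpr1b (282 to 423 CPM in HFHS+Veh animals and 256 to 297 CPM in CD+Veh animals) and the Kit receptor (219 to 285 CPM in HFHS+Veh animals and 218 to 355 CPM in CD+Veh animals) both overlapping.

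Lists of meiotic genes held 0 called genes as well. Of 44 genes of metaphase II arrest and anaphase control 27 had higher levels (median 0.03), and of 49 genes of the spindle, the kinetochore and cohesin 25 did (median 0.01). Fbxo43, which encodes the Emi2 inhibitor of the anaphase-promoting complex that keeps the egg arrested, had 313, 272, 264 and 295 CPM in HFHS+Veh animals, against 248, 223, 244 and 241 CPM in CD+Veh animals. Ccna2, cyclin A2, had 453, 365, 394 and 397 CPM in HFHS+Veh animals, against 359, 306, 331 and 339.7 CPM in CD+Veh animals. Both were apart between the groups in CPM and overlapped in RPKM, with small folds (log2 0.26 ± 0.16 (SE) and 0.27 ± 0.16 (SE)). Mos, a kinase of the arrest, had 602, 743, 314 and 834 CPM in HFHS+Veh animals, against 919, 702, 720.1 and 718 CPM in CD+Veh animals. Animal 10 was the lowest by far, and without the 8 oocytes with contradictory labels, which include all of animal 10, its log2 fold change of -0.30 turned to 0.04. Ube2c, the ubiquitin carrier of the anaphase-promoting complex, had 27.2 to 48.97 CPM in HFHS+Veh animals and 35.3 to 68.0 CPM in CD+Veh animals, with only HFHS+Veh animal 19 inside the CD+Veh range. Birc5, survivin, a subunit of the chromosomal passenger complex, had 151, 143, 189 and 215 CPM in HFHS+Veh animals, against 232, 207, 242 and 239 CPM in CD+Veh animals. Its HFHS+Veh animal 19 lay above CD+Veh animal 3, and the log2 fold change was -0.40 ± 0.17 (SE) (unadjusted edgeR p = 0.0336). Spc24 of the kinetochore had 4.86 to 11.9 CPM in HFHS+Veh animals and 5.33 to 19.96 CPM in CD+Veh animals.

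Genes of chromatin and stored RNA lay mostly on the higher side, by small amounts. Histone modification and chromatin remodelling had 44 of 64 members higher (median 0.08) and maternal mRNA storage and decay 35 of 50 (median 0.10), where 52.8% of all genes tested were higher; 0 were called in either. By animal the 2 lists overlapped between the lineages, from -0.03 to 0.15 in HFHS+Veh and from -0.10 to 0.08 in CD+Veh for histone genes, and from -0.04 to 0.15 in HFHS+Veh and from -0.16 to 0.20 in CD+Veh for RNA storage genes. Bmi1, a Polycomb protein, had 783, 819.9, 1055 and 631 CPM in HFHS+Veh animals, against 504, 493, 637 and 795 CPM in CD+Veh animals. CD+Veh animals 13 and 14 reached the HFHS+Veh range, as animals 3 and 14 did for the deacetylase Sirt1 (37.3 to 56.3 CPM in HFHS+Veh animals and 25.56 to 48.7 CPM in CD+Veh animals), and the related Sirt6 was lower on average with wide overlap (35.9 to 81.0 CPM in HFHS+Veh animals and 29.9 to 111 CPM in CD+Veh animals). The deadenylases Cnot6l (964 to 1349.9 CPM in HFHS+Veh animals and 869 to 1015 CPM in CD+Veh animals) and Cnot6 (63.1 to 79.9 CPM in HFHS+Veh animals and 50.3 to 71.8 CPM in CD+Veh animals) had log2 fold changes of 0.23 and 0.30, and Parn, a deadenylase of oocyte maturation in Xenopus, had -0.52 (8.99 to 16.3 CPM in HFHS+Veh animals and 12.01 to 19.6 CPM in CD+Veh animals).

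DNA methylation genes, Dnmt3l included, were split, 13 of 24 being higher (median 0.07). Zfp57, which protects imprints after fertilisation, had 344, 322, 351 and 387 CPM in HFHS+Veh animals, against 412, 439.8, 407 and 378 CPM in CD+Veh animals. Only HFHS+Veh animal 19 overlapped, with CD+Veh animal 14. Tet3, the oxidase that acts on the paternal genome in the zygote, had 1427 to 1631 CPM in HFHS+Veh animals and 1051 to 1588 CPM in CD+Veh animals, and the related Tet1 had 6.05 to 17.495 CPM in HFHS+Veh animals and 7.07 to 11.1 CPM in CD+Veh animals, with HFHS+Veh animals 10 and 19 above the rest. Imprinted genes had 15 of 26 members lower (median -0.08), most of them low, and the 2 named are Ppp1r9a (9.76 to 15.8 CPM in HFHS+Veh animals and 14.8 to 19.24 CPM in CD+Veh animals) and Grb10 (29.0 to 42.6 CPM in HFHS+Veh animals and 24.2 to 37.7 CPM in CD+Veh animals), with log2 fold changes of -0.36 and 0.19. RNA m6A methylation genes had 14 of 22 members higher (median 0.03). The methyltransferase Mettl16 had 6.78 to 13.99 CPM in HFHS+Veh animals and 12.7 to 16.98 CPM in CD+Veh animals and the writer subunit Rbm15b 35.6 to 55.2 CPM in HFHS+Veh animals and 25.41 to 47.4 CPM in CD+Veh animals, both overlapping.

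Protein synthesis, folding and breakdown gave no called gene in any list (0 in each). Cytosolic ribosomal proteins had 35 of 49 members higher (median 0.14), but among members of at least 10 CPM the median was 0.02, and by animal the list stood at 0.83 in HFHS+Veh animal 5 and at -0.39 to -0.16 in the other HFHS+Veh animals, against -0.26 to 0.35 in CD+Veh animals. Relative to all genes its median turned negative in 4 of 23 other settings (-0.45 to 0.31 over all of them). On the higher side Rpl13a had 22.9 to 45.5 CPM in HFHS+Veh animals and 25.9 to 28.0 CPM in CD+Veh animals and Rpl22 27.7 to 36.5 CPM in HFHS+Veh animals and 21.6 to 39.2 CPM in CD+Veh animals. On the lower side Rpl41 had 6.44 to 10.9 CPM in HFHS+Veh animals and 9.03 to 21.99 CPM in CD+Veh animals and Rps2 5.18 to 16.4 CPM in HFHS+Veh animals and 6.996 to 20.8 CPM in CD+Veh animals. All 4 overlapped. The proteasome had 27 of 44 members lower (median -0.08), with the ATPase Psmc3 at 14.9 to 31.7 CPM in HFHS+Veh animals and 23.04 to 39.0 CPM in CD+Veh animals and the core subunit Psma6 at 16.4 to 27.3 CPM in HFHS+Veh animals and 13.04 to 22.26 CPM in CD+Veh animals. By animal its median was 0.10 in HFHS+Veh animal 5 and -0.16 to -0.03 in the other 3, against -0.02 in CD+Veh animal 3 and 0.14 to 0.19 in the other 3 CD+Veh animals.

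Chaperones were split, 23 of 42 being lower (median -0.03). Cct7, a subunit of the chaperonin that folds actin and tubulin, had 34.1, 35.1, 18.5 and 30.1 CPM in HFHS+Veh animals, against 26.28, 18.9, 13.6 and 12.8 CPM in CD+Veh animals. CD+Veh animals 13 and 14 were lowest and animal 10 the lowest of the HFHS+Veh animals (log2 0.72 ± 0.32 (SE), unadjusted edgeR p = 0.0379), and Hspa4 had 8.39 to 18.5 CPM in HFHS+Veh animals and 12.1 to 34.1 CPM in CD+Veh animals. Unfolded protein response genes had 24 of 41 members lower (median -0.02), among them Sdf2l1 (37.8 to 61.5 CPM in HFHS+Veh animals and 36.9 to 79.0 CPM in CD+Veh animals), while Edem3, which trims glycans of misfolded proteins, had 17.39 to 28.0 CPM in HFHS+Veh animals and 10.7 to 20.8 CPM in CD+Veh animals. Oxidative stress and glutathione genes had 23 of 43 higher (median 0.03), with Gstm5, a glutathione transferase, at 197, 197, 516 and 248 CPM in HFHS+Veh animals, against 287, 340.4, 470.2 and 583 CPM in CD+Veh animals. HFHS+Veh animals 4, 5 and 19 lay below all CD+Veh animals and animal 10 near the top. Nqo1, a quinone reductase, overlapped (23.3 to 35.1 CPM in HFHS+Veh animals and 23.7 to 44.2 CPM in CD+Veh animals).

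DNA damage and apoptosis genes had 29 of 57 members higher (median 0.01) and autophagy and lysosome genes 23 of 44 (median 0.01). Bcl2l11, the pro-apoptotic protein Bim, had 44.4, 34.99, 32.6 and 29.7 CPM in HFHS+Veh animals, against 24.9, 30.9, 25.39 and 24.97 CPM in CD+Veh animals. Only CD+Veh animal 3 overlapped the HFHS+Veh animals. Casp8, an initiator caspase, ranged over 9.80 to 37.7 CPM in HFHS+Veh animals and 16.7 to 50.1 CPM in CD+Veh animals, and the autophagy kinase Ulk2 over 8.84 to 22.68 CPM in HFHS+Veh animals and 9.48 to 12.1 CPM in CD+Veh animals. The log2 fold change of Ulk2, 0.45, turned to -0.12 without the 8 oocytes with contradictory labels.

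Among abundant genes whose groups did not overlap in CPM, folds were small, and all 4 given here overlapped in RPKM. C86187, an oocyte transcript whose role is not described here, had 4312, 4057, 3966 and 3724 CPM in HFHS+Veh animals, against 3419.8, 3418, 3295 and 3283 CPM in CD+Veh animals. Every HFHS+Veh animal stood above every CD+Veh animal, HFHS+Veh animal 19 being the closest. Ipo8, an importin, had 841 to 1343 CPM in HFHS+Veh animals and 699 to 799.6 CPM in CD+Veh animals, Arfip1, a binding protein of small GTPases at the Golgi, 804 to 913 CPM in HFHS+Veh animals and 671 to 779 CPM in CD+Veh animals, and Mtus1, a microtubule-associated protein, 726 to 908 CPM in HFHS+Veh animals and 620.2 to 710.2 CPM in CD+Veh animals. Log2 fold changes ran from 0.23 in Arfip1 to 0.42 in Ipo8, and the smallest unadjusted edgeR p of these 4 was 0.0737, for Ipo8.

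Several abundant transcripts differed manyfold between animals of the same lineage. Those that took the largest share of counts (CPM is not scaled to length) included Paip1, a partner of the poly(A)-binding protein, Jag1, a Notch ligand, Wtap, a subunit of the m6A writer, and Spin1, a reader of histone marks. Paip1 had 5054, 4340.1, 26052 and 7259.6 CPM in HFHS+Veh animals, against 3532, 1820, 12482 and 16175 CPM in CD+Veh animals. HFHS+Veh animal 10 and CD+Veh animals 13 and 14 were high and the rest low. Jag1 had 2957, 4026, 19046 and 5307 CPM in HFHS+Veh animals, against 2419, 2055, 9373 and 12876 CPM in CD+Veh animals. Wtap had 3885, 3946, 18246 and 6178 CPM in HFHS+Veh animals, against 2869, 1737, 11329 and 13343 CPM in CD+Veh animals. The same 3 animals were highest in both, and in Spin1 (11225, 9245, 26251 and 15537 CPM in HFHS+Veh animals, against 10025, 5365, 21886 and 22375 CPM in CD+Veh animals). CD+DHT animals 8 and 9 were high too, with 15191 and 38830.2 CPM of Paip1, and animals 6, 7 and 17 had 6422 to 6434 CPM. Among the 8 animals of the 2 groups, HFHS+Veh animal 10 and CD+Veh animals 13 and 14 also had the fewest genes detected at a fixed depth, with 6696, 7379 and 7226 genes, against 7577 to 8726 genes in the other 5 animals. Single oocytes of CD+DHT animals 8 and 9 had 6233 to 7023 and 5746 to 6734 genes. Those of animals 6 and 7 had 7761 to 8238 and 6589 to 8635 genes. Animal 17, low in Paip1, had oocytes of 5124 to 8261 genes. Bhlhe41, a transcriptional repressor, was among the genes with the largest spread between HFHS+Veh animals and was highest in the same 3 animals (224, 169, 1623 and 369 CPM in HFHS+Veh animals, against 235, 135, 623 and 790 CPM in CD+Veh animals).

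Other abundant transcripts varied less. H1foo, the oocyte linker histone, had 5672 to 12106 CPM in HFHS+Veh animals and 6255 to 12999 CPM in CD+Veh animals, and Tcl1, a coactivator of Akt, 9113 to 14380.1 CPM in HFHS+Veh animals and 4952 to 16191 CPM in CD+Veh animals. CD+Veh animal 3 was lowest in Tcl1 and HFHS+Veh animal 10 lowest in H1foo. Zbed3, an oocyte zinc finger protein, had 6209.9 to 9331 CPM in HFHS+Veh animals and 5611 to 7894 CPM in CD+Veh animals (log2 0.22 ± 0.21 (SE)). Bcl2l10, an anti-apoptotic protein of oocytes, had 7813 to 11280.3 CPM in HFHS+Veh animals and 5537 to 12782 CPM in CD+Veh animals, Pttg1, securin, 7150.3 to 13095 CPM in HFHS+Veh animals and 4088 to 13945 CPM in CD+Veh animals, and Ccdc6 4302 to 9697 CPM in HFHS+Veh animals and 2775 to 9662 CPM in CD+Veh animals. In each of these 3 the lowest animal of the 8 was CD+Veh animal 3 and the groups overlapped widely.

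RNA of cumulus cells, the somatic cells that surround the egg, also differed between animals. Without Rgs2, which dominates the list and is itself high in oocytes, cumulus markers, of which 13 to 36 of 39 were detected per animal with Rgs2, summed to 221, 1280, 94.0 and 207 CPM in HFHS+Veh animals, against 185, 559, 125 and 688 CPM in CD+Veh animals. The low sums were mostly Cyp19a1, which was at 56.4 to 104 CPM in HFHS+Veh and 76.9 to 92.1 CPM in CD+Veh animals. It made 56.4 CPM of the sum in HFHS+Veh animal 10 and 81.3 CPM in CD+Veh animal 13. Kitl, Nr5a2 and Runx2 were likewise present in every animal. Inha, in contrast, was at 0 in those 2 animals and at 20.1 CPM in HFHS+Veh animal 5 and 40.3 CPM in CD+Veh animal 3. Animals with high and low sums were found in both lineages, and of 25 cumulus markers tested 17 had higher HFHS+Veh levels with 0 called. That direction rests on HFHS+Veh animal 5: the list's median log2 fold change was 0.16, and -1.55 without that animal. Spp1, osteopontin, had 48.9, 511, 1.78 and 33.5 CPM in HFHS+Veh animals, against 28.2, 115, 1.21 and 450 CPM in CD+Veh animals. Nupr1, a stress-response regulator that is on no list here, had 41.8, 138, 0 and 0.806 CPM in HFHS+Veh animals, against 8.04, 172, 0.0550 and 52.5 CPM in CD+Veh animals. Both were highest in HFHS+Veh animal 5 and CD+Veh animals 3 and 14, the animals with the largest sums, and lowest in HFHS+Veh animal 10 and CD+Veh animal 13. Malat1, a long nuclear RNA, had 49.3, 169, 24.5 and 17.12 CPM in HFHS+Veh animals, against 24.3, 190.1, 23.2 and 136 CPM in CD+Veh animals. HFHS+Veh animal 5 and CD+Veh animals 3 and 14 were highest. Akr1cl was highest in HFHS+Veh animal 5 and next in CD+Veh animal 14 (29.7, 219.8, 23.7 and 32.8 CPM in HFHS+Veh animals, against 21.3, 37.5, 41.6 and 92.8 CPM in CD+Veh animals), and Rab3il1, which activates Rab GTPases, was lowest in HFHS+Veh animal 10 (12.7 to 139.8 CPM in HFHS+Veh animals and 36.2 to 187 CPM in CD+Veh animals). Nr5a2, a nuclear receptor of granulosa cells, was highest in CD+Veh animal 13, with 9.78 to 14.98 CPM in HFHS+Veh animals and 6.39 to 17.296 CPM in CD+Veh animals.

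**Figure D4:**
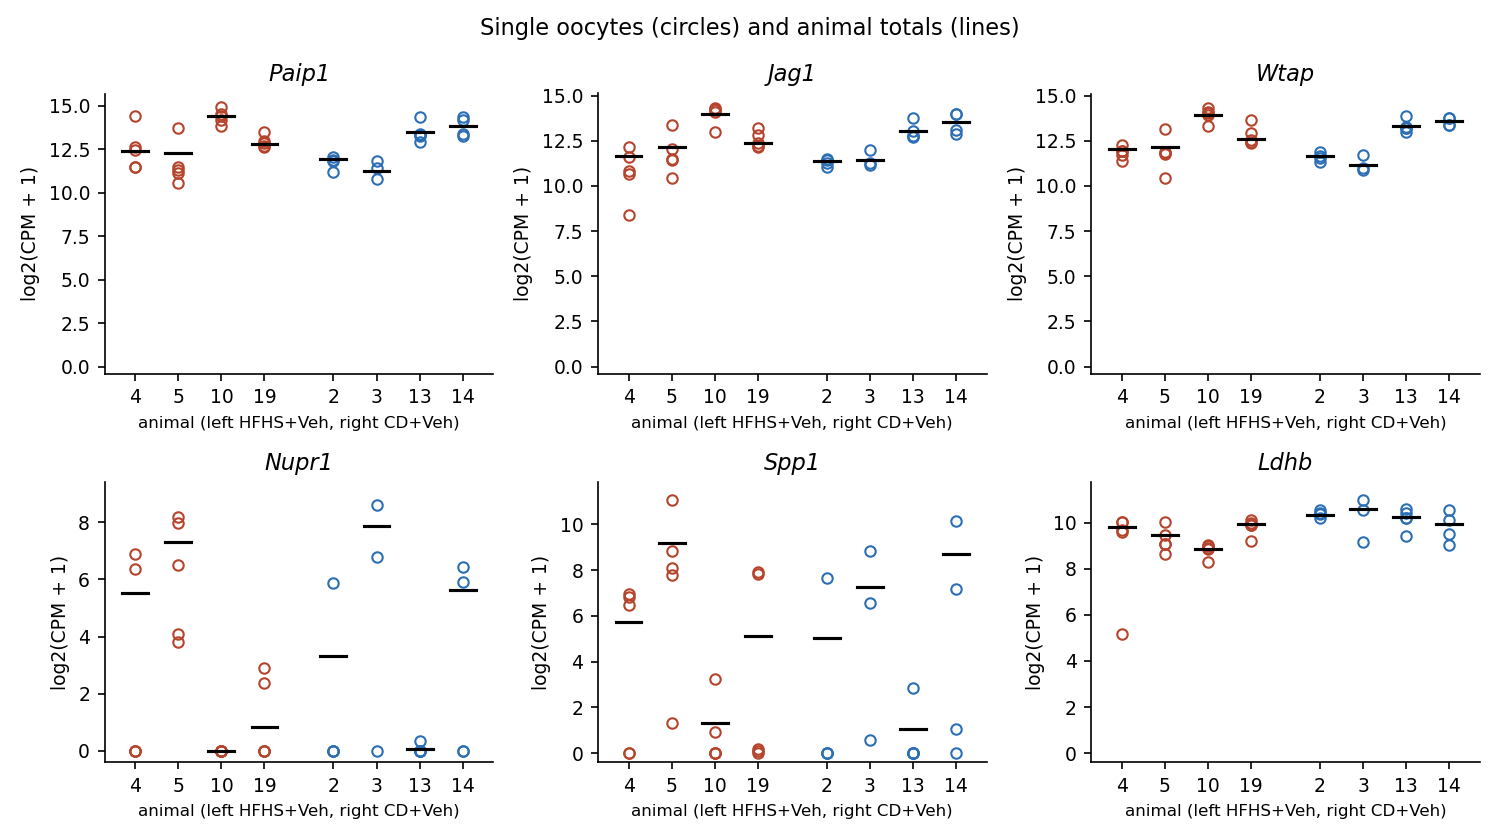
Level of 6 genes as log2(CPM + 1) (y axis) in each single oocyte (circles) and in the summed counts of each animal (lines), by animal (x axis), HFHS+Veh in red on the left and CD+Veh in blue on the right. Most oocytes of HFHS+Veh animal 10 and CD+Veh animals 13 and 14 lie high in Paip1, Jag1 and Wtap, whereas Nupr1 and Spp1 are at or near 0 in some oocytes and high in others of the same animal.

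Likeness between oocytes was highest within an animal by its median. Spearman's correlation between 2 oocytes had a median of 0.848 within an animal (65 pairs), 0.814 between animals of 1 lineage (245 pairs) and 0.821 between lineages (320 pairs), as a description, since pairs share oocytes and vary in depth. Nupr1 differed widely between oocytes of some animals, and was at 0 in all 5 oocytes of HFHS+Veh animal 10 and at 13.18 to 287 CPM in the 5 of animal 5. In CD+Veh animal 3 it was at 390, 110 and 0 CPM in the 3 oocytes. Ldhb was detected in every oocyte, from 35.3 to 1054 CPM in HFHS+Veh animal 4, 394 to 1037 CPM in animal 5, 308 to 518 CPM in animal 10 and 586 to 1110 CPM in animal 19. In CD+Veh it lay at 1169 to 1508 CPM in animal 2, 566 to 1996 CPM in animal 3, 686 to 1543 CPM in animal 13 and 519 to 1477 CPM in animal 14.

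Measures of the whole library did not separate the lineages. Thinned to 200000 counts, oocytes showed 7577, 8255, 6696 and 7657 genes on average in HFHS+Veh animals, against 8406, 8726, 7379 and 7226 genes in CD+Veh animals. The means were 7546 ± 643 genes in HFHS+Veh and 7934 ± 744 genes in CD+Veh (SD, n = 4 each), and an exact two-sided permutation test gave p = 0.486, where the smallest p that 4 against 4 animals allow is 0.0286. Gene counts per spike-in count, a measure of relative RNA content if equal spike-in was added, averaged 9.84 ± 1.02 in HFHS+Veh and 9.95 ± 0.39 in CD+Veh on the log2 scale (SD; exact permutation p = 0.971, n = 4 each). HFHS+Veh animal 4 was lowest at 8.36, and without its oocyte 2 the sign of the difference turned (0.11).

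The spread between oocytes of an animal, the median over genes of the SD of log2(CPM + 1), was 1.38, 0.722, 0.794 and 0.577 in HFHS+Veh animals, against 0.501, 0.488, 0.618 and 0.704 in CD+Veh animals. The means were 0.869 ± 0.355 in HFHS+Veh and 0.578 ± 0.102 in CD+Veh (SD, n = 4 each; exact permutation p = 0.114). Animal 4 was highest, and without its oocyte 2 the means were 0.666 in HFHS+Veh and 0.577 in CD+Veh (exact permutation p = 0.286, n = 4 each).

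**Figure D5:**
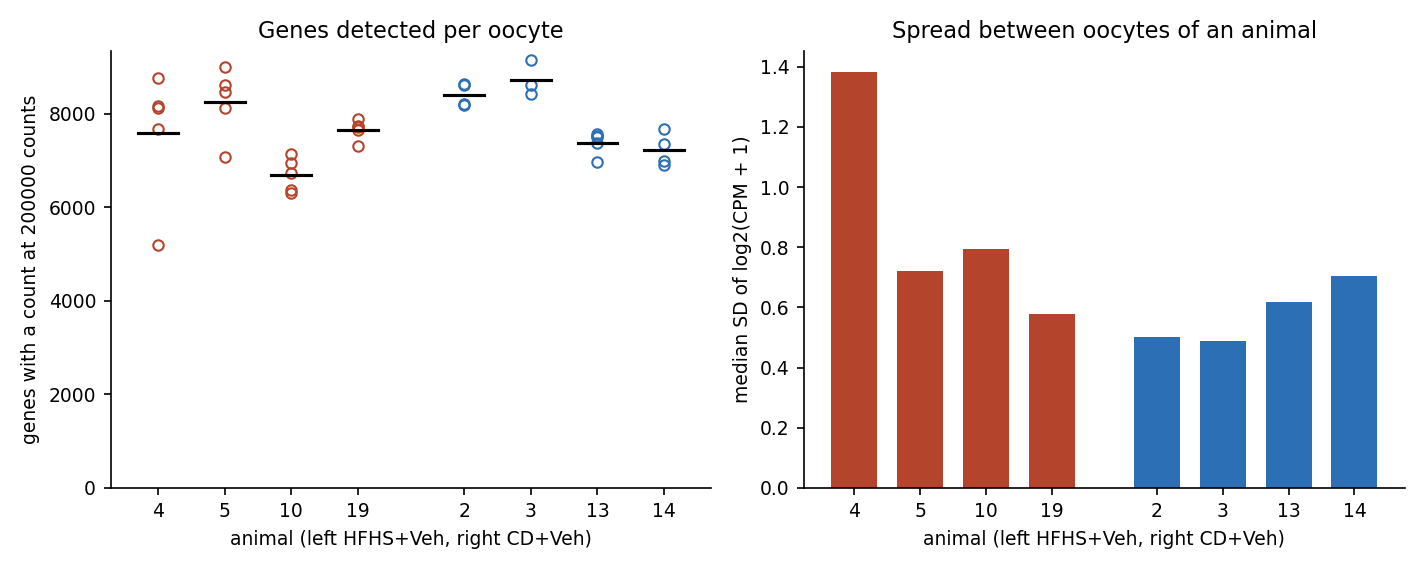
Left, genes with a count per oocyte after thinning to 200000 counts (y axis, circles; lines are animal means). Right, median SD of log2(CPM + 1) between the oocytes of an animal (y axis, bars from 0). Both are by F2 animal (x axis), HFHS+Veh in red on the left and CD+Veh in blue on the right; HFHS+Veh animal 4 stands at 1.38 in the right panel with oocyte 2 included.

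The named genes were set beside the same 2 groups in F1 and F3. No animal is named for at least 1 of the groups there, so each was pooled as 1 sample, nothing was tested, and the intervals cover counting error only. The characteristics of the F1 oocytes titled HFHS+Veh name the hormone instead of vehicle and those of 8 oocytes titled F3 HFHS+Veh name F2, so both labels are in doubt. Of the 12 genes named as higher in F2, 8 had higher HFHS+Veh levels in F1 and 3 in F3, where 53.2% and 40.8% of all genes did. Of the 12 named as lower, 9 had lower levels in F1 and 10 in F3, where 46.8% and 58.4% of all genes did. The 4 genes given next were chosen after their values were seen. Dnmt3l was one of those lower in both, at 21.6 CPM (95% Poisson interval 20.3 to 23.1) in F1 HFHS+Veh and 33.6 CPM (95% Poisson interval 31.2 to 36.1) in F1 CD+Veh. In F3 it was at 15.9 CPM (95% Poisson interval 13.22 to 19.01) in HFHS+Veh and 32.2 CPM (95% Poisson interval 30.8 to 33.7) in CD+Veh. Fdft1 was lower in both as well, at 10.25 CPM (95% Poisson interval 9.31 to 11.3) in F1 HFHS+Veh and 18.4 CPM (95% Poisson interval 16.6 to 20.3) in F1 CD+Veh, and in F3 at 10.05 CPM (95% Poisson interval 7.93 to 12.6) in HFHS+Veh and 21.2 CPM (95% Poisson interval 20.03 to 22.39) in CD+Veh. Ldhb was nearly equal in F3, at 744 CPM (95% Poisson interval 724 to 763) in F3 HFHS+Veh and 757 CPM (95% Poisson interval 749.9 to 764) in F3 CD+Veh, and Prkar2b, higher in F2, was lower, at 74.7 CPM (95% Poisson interval 72.2 to 77.4) in F1 HFHS+Veh and 85.1 CPM (95% Poisson interval 81.3 to 89.1) in F1 CD+Veh.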

How the data were processed

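Single MII oocytes were read with Smart-seq2 per the labels, from polyA RNA. Per the submitters' processing notes, the tools included STAR 2.4.2a and Seurat 2.0, with mm10 as the build. Which program counted, with which strand setting and annotation, is not given in the sources used here. Files the authors deposited hold raw counts per gene, an RPKM table of the same oocytes, and a natural log normalised table of 89 oocytes, used here only to see which oocytes it holds. Groups were taken from titles. Lines of 92 spike-in RNAs and 1 eGFP line were set aside, and 494 repeated lines were added to their symbol, leaving 23995 symbols. Counts of kept oocytes were summed per animal and tested with edgeR 4.0.16 (R 4.3.3; filterByExpr, TMM, quasi-likelihood) on 13 F2 animals, 4 HFHS+Veh, 5 CD+DHT and 4 CD+Veh, which share 1 estimate of the spread, with Benjamini-Hochberg adjustment at 0.05 over all 11962 genes. Alternatives used DESeq2 1.42.0 and limma 3.58.1 (log2 with a pseudocount of 1), other scalings, filters and oocyte sets, and each animal left out. No pair of libraries was identical (0 pairs). Library measures were compared with exact two-sided permutation tests over animals. Scripts were run on simulated data, with recovery required only for folds of at least 4 at a dispersion of 0.05. The spread of these data was larger (common biological coefficient of variation 0.617, the square root of the dispersion). Recovery at that spread is not reported here. Positions are of GRCm38, GENCODE vM21, matched by symbol for 11399 genes.

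Named genes were, among those of at least 10 CPM and leaving out names of the Rik, Gm, LOC or similar kind, the 12 with the smallest p in each direction, up to 2 per list and direction, the 10 with the largest share of counts, the 6 most abundant without overlap, and the 6 with the largest spread between HFHS+Veh animals among those of at least 50 CPM; 1 gene that the rule names is not reported here. The members and lists were chosen with earlier results of these data known. Libraries carry no molecular identifiers, so counting intervals cover counting error only.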

Additional observations from a re-analysis of the deposited data

Results flagged for a closer look

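In 14 of 208 groups of 4 animals examined, 1 animal lay far from the other 3 by Dixon's test on log2(CPM + 1), where chance flags about 1 in 20. No cause was tested for any of them.

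HFHS+Veh animal 5 was above the other HFHS+Veh animals in Acly, at 62.0 CPM, and in Akr1cl, at 219.8 CPM, and below them in Nobox, at 35.3 CPM. HFHS+Veh animal 19 was above the others of its lineage in Btk, at 16.98 CPM, Hsd17b7, at 86.2 CPM, Map3k6, at 72.0 CPM, and Ube2c, at 48.97 CPM. In Map3k6 and Ube2c this animal lay within the range of the CD+Veh animals and the other 3 lay below it. HFHS+Veh animal 10 was above the others in Lrif1, at 42.5 CPM, and below them in Pfkl, at 4.37 CPM, and HFHS+Veh animal 4 was below them in Cox6c, at 39.0 CPM. Among CD+Veh animals, animal 3 was above the others in Bcl2l11, at 30.9 CPM, and in Tle6, at 213 CPM, animal 2 was above them in Mos, at 919 CPM, and animal 14 was below them in Psmc3, at 23.04 CPM.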

How the results depend on the processing

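With 4 animals a lineage, a median SE of 0.285 (log2) and oocytes of uneven depth, small differences were not detectable. No paired analysis was possible because the groups share no title number, and those numbers, read as animals, pair nothing. Over 23 other settings, 1952 of 1955 fold changes of 85 genes examined kept their direction. The exceptions came without the 8 oocytes labelled F3, where Mos stood at 0.043, Ppara at 0.21 and Ulk2 at -0.12, and the cause was not tested. DESeq2 called 2 genes, and the count at an unadjusted p under 0.05 ran from 61 to 569. The count of genes whose groups did not overlap was 81 among genes of at least 10 CPM (fewer genes tested), 482 without the 8 oocytes labelled F3, and 376 to 543 with each animal left out, 3 against 4 animals overlapping less often by construction. The difference in gene counts per spike-in count, -0.12 on the log2 scale, was 0.079 with the stricter oocyte filter, 0.11 with the authors' oocytes, and -0.35 to 0.38 with each animal left out, positive without HFHS+Veh animal 4 (0.38) and without CD+Veh animal 3 (0.07). The median log2 fold change of all genes shifted by -0.15 with equal weight per oocyte, -0.11 with RPKM and -0.11 with single oocytes in voom, and of 690 list medians 59 moved.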
